A study of Mus musculus with 7 samples.

Results

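The cDC2 marker genes are 8 genes that mark or specify type 2 conventional dendritic cells (cDC2), and they were read here in cells sorted as the other conventional subset, type 1 (cDC1). The members, Sirpa, Cd209a, Mgl2, Esam, Cd4, Klf4, Notch2 and Cd300a, were taken from the table by gene symbol, and all 8 of 8 were measured, each by 1 probe set, among 19505 named genes. RNA was measured on whole-transcript microarrays from splenic cDC1 of C57BL/6 mice bearing B16-OVA, a melanoma line that carries ovalbumin. The KO group holds 4 arrays from CD11c-Cre; OPA1 flox mice. There the promoter of CD11c, a gene active across dendritic cells and some macrophages, drives Cre, which acts on a floxed Opa1 gene. The WT group holds 3 arrays from wild-type mice, and the labels give neither a Cre-only control nor an age. OPA1 fuses the inner mitochondrial membrane. Nothing in the labels ties an array to a mouse of its own, so a p-value here reflects array-to-array spread, some of which may be technical.

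The 2 conventional subsets divide the labour of antigen presentation. cDC1 depend on IRF8 and BATF3 and cross-present antigen to CD8 T cells, whereas cDC2 depend on IRF4 and other factors and mainly prime CD4 T cells. In mouse spleen, NOTCH2 signals through RBPJ to maintain the ESAM-high, largely CD4-positive fraction of cDC2, and KLF4 is needed for another cDC2 fraction. SIRP alpha, the receptor for CD47, is the surface protein by which cDC2 are usually told from XCR1-positive cDC1, so the level of these genes bears on how clean a cDC1 sort was.

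Values are log2 probe set summaries. Levels are compared across arrays within a gene and never between genes, whose probes differ. In bulk RNA, more cDC2 in a sort and more RNA of the gene per cell cannot be told apart. Opa1 read 7.70, 7.10, 6.85 and 8.24 on KO 1 to 4, and 8.14, 8.80 and 9.15 on WT 1 to 3, so the array labelled KO 4 lay above the array labelled WT 1, and groups are named as the arrays are labelled. Between KO and WT, 0 of 19505 genes passed an adjusted p of 0.05 in limma, a share of 0%, while 3820 genes, or 19.6%, had an unadjusted p under 0.05. These were 8.98% higher and 10.6% lower in KO, and with array medians set equal 12.7% higher and 9.30% lower, 22.0% in all.

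The arrays labelled WT 1 and WT 2 stood apart from the other 5. The correlation between these 2 arrays, taken over genes and so given as a description, was 0.982. Their correlation with the remaining arrays was 0.924 to 0.954, and that among the remaining arrays was 0.988 to 0.993. On the array labelled WT 2 the defining markers of cDC1 went against the label. Xcr1, the cDC1 chemokine receptor, read 12.70 to 12.79 on the KO arrays, against 12.12, 7.97 and 12.76 on WT 1 to 3. Clec9a, the receptor for actin of dead cells, read 12.03 to 12.11 on the KO arrays, against 10.46, 7.29 and 12.10 on WT 1 to 3. Cd8a, which marks resident cDC1 of spleen, read 11.95 to 12.12 on the KO arrays, against 7.89, 6.96 and 12.11 on WT 1 to 3. Of a list of 19 cDC1 markers, 19 had their lowest value of the 7 arrays on WT 2, where 29.3% of all genes did. The protocol text shared by all 7 samples speaks of cDC1 and cDC2 sorted from tumor and from spleen, while the titles and sources of these 7 name splenic cDC1. Differences of the 8 members and medians of the lists nearest to them are therefore also given without these arrays.

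**Figure D1:**
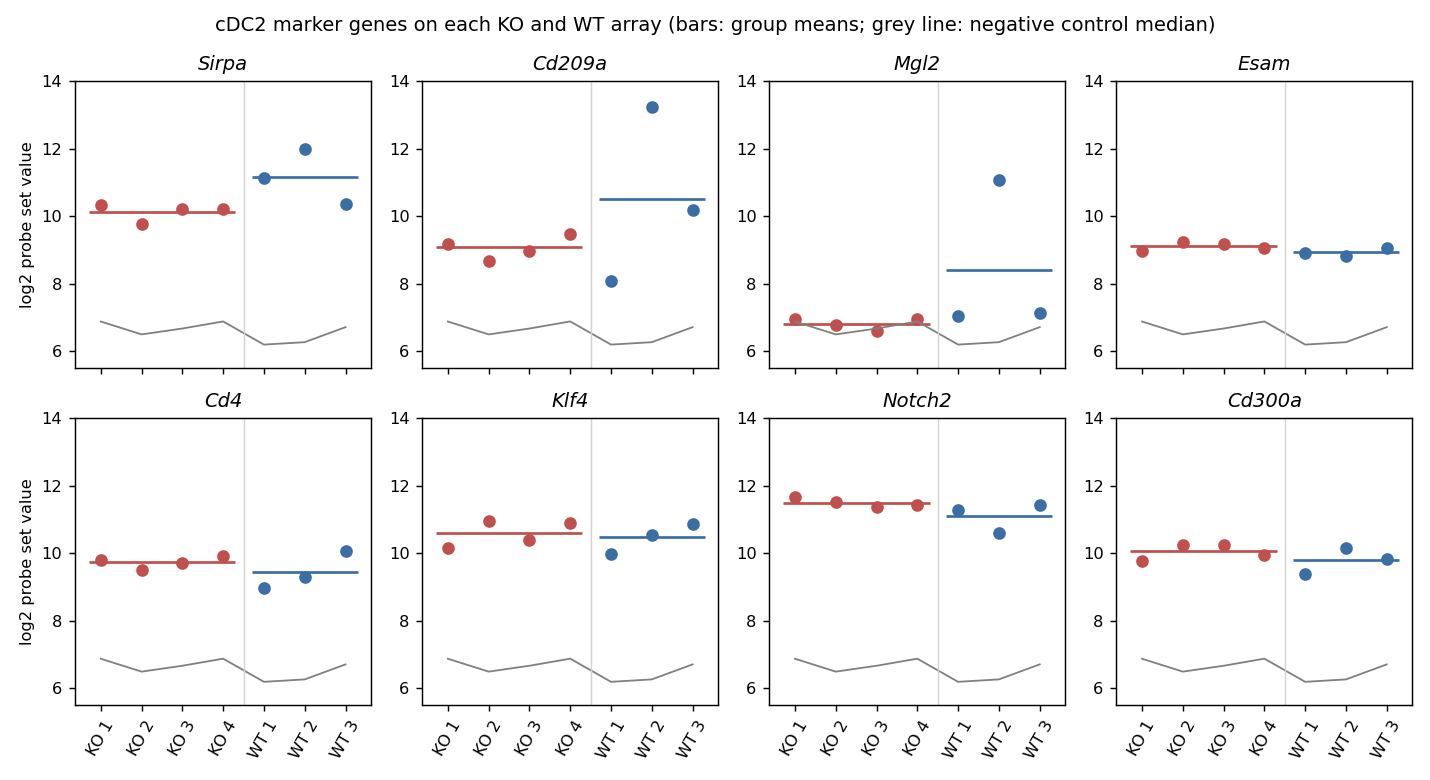
Log2 probe set value (vertical axis) of each cDC2 marker gene on each KO and WT array (horizontal axis), with bars at the group means and a grey line at the median of the negative control probe sets of each array. The array labelled WT 2 stands far above the other 6 for Cd209a and Mgl2 and highest for Sirpa, while the other 5 genes have narrower ranges over the 7 arrays, 0.41 for Esam and 0.88 for Cd300a.

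The C-type lectin receptors Cd209a and Mgl2 carried the largest differences between arrays among the members. CD209a is a mouse relative of human DC-SIGN, and MGL2, also called CD301b, binds galactose-type sugars and marks a cDC2 fraction in skin. Both genes stayed below the 95th percentile of the negative controls on all 4 KO arrays and had by far their highest value on WT 2. The sequences before their annotated starts are shown because these 2 members stood furthest above KO on WT 2. On WT 1 they lay on opposite sides of KO, Cd209a below all KO arrays and Mgl2 above them. Each line holds the 250 bases before the start, from RefSeq on GRCm38.p6, with capitals marking the letters GGAAGT, the core bound by PU.1, a myeloid transcription factor.

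Cd209a (chr8:3748985-3749234, minus strand): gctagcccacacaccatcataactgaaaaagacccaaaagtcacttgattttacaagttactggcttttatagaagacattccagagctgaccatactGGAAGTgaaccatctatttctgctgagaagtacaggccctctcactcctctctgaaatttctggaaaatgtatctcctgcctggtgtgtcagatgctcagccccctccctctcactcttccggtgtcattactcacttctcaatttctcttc
Mgl2 (chr11:70130107-70130356, plus strand): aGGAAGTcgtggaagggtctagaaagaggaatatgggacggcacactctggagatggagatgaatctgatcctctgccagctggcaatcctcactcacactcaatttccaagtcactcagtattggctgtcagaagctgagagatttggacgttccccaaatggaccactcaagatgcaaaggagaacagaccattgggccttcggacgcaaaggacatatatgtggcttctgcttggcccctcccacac

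Of the 8 members, 5 had a promoter in the RefSeq table, namely Cd209a, Mgl2, Klf4, Notch2 and Cd300a. GGAAGT, or its reverse complement ACTTCC, occurred once in the window of Cd209a, at position -152 counted back from the start, and once in that of Mgl2, at position -249, and in none of the other 3 windows. It occurs in 19.7% of the 32851 windows of that length in the table. TGGGAA, the core bound by the Notch effector RBPJ, or TTCCCA, was found in the window of Cd300a alone among the 5, against 21.6% of all windows. CCACCC, a box bound by KLF factors, or GGGTGG, was likewise found in the window of Cd300a alone, against 28.1% of all windows. No match of these motifs overlapped another, and a match describes letters and not a site in use.

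Cd209a read 9.18, 8.68, 8.96 and 9.46 on KO 1 to 4, against 8.07, 13.23 and 10.18 on WT 1 to 3. Thus WT 2 was the highest array, 3.06 above the next, and WT 1 the lowest, so the KO values lay inside the spread of WT and the groups overlapped. The mean was 9.07 ± 0.33 (SD, n = 4) in KO and 10.49 ± 2.60 (SD, n = 3) in WT. The difference, KO minus WT, was -1.42 (standard error 1.01) and missed the threshold (limma, adjusted p = 0.429). Without WT 2 the difference was -0.05 with a standard error of 0.53 (limma, adjusted p = 0.978). Without WT 1 it was -2.63 (limma, adjusted p = 0.428), and with array weights -0.26 (limma, adjusted p = 0.861), so its size depended on the WT arrays. Without WT 1 and WT 2, where the spread of the single WT array left is taken from KO, it was -1.10 with a standard error of 0.26 (limma, adjusted p = 0.725). WT 3 itself lay above all 4 KO arrays. In that contrast of 4 arrays with 1 array, 60 of 19505 genes, or 0.308%, were lower in KO by at least 1 log2, and Cd209a was the 1 member among them.

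Mgl2 read 6.94, 6.78, 6.59 and 6.94 on KO 1 to 4, against 7.03, 11.06 and 7.12 on WT 1 to 3. All 3 WT values lay above all 4 KO values, yet WT 1 and WT 3 lay only just above KO 1 and KO 4 while WT 2 lay 3.94 above every other array. The KO values lay -0.08 to 0.28 log2 from the median of the negative control probe sets of their own arrays, and on KO 3 Mgl2 lay below that median. On WT 2 it stood 4.80 above that median. The mean was 6.81 ± 0.16 (SD, n = 4) in KO and 8.40 ± 2.30 (SD, n = 3) in WT, a difference of -1.59 with a standard error of 0.89 (limma, adjusted p = 0.334). Without WT 2 it was -0.26 with a standard error of 0.14 (limma, adjusted p = 0.585).

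On the log2 scale the KO mean minus WT 2 was -4.16 for Cd209a and -4.25 for Mgl2. No fold is given, since neither gene passed the 95th percentile of the negative controls on a KO array and Mgl2 lay near their median there. These are the only members for which WT 2 passed the 95th percentile of its negative controls and all 4 KO arrays stayed below theirs. Genes with patterns most like that of Cd209a, by the root mean square difference over the 7 arrays after each gene was centred on its mean, were Clec4n at 0.44 log2, Clec4a3 at 0.48 and Clec4b1 at 0.53. All 3 encode C-type lectin receptors of myeloid cells. For Mgl2 they were Pgf, a placental growth factor, at 0.34, C3ar1, the receptor for complement C3a, at 0.36, and Ms4a4c at 0.41. Cd209a and Mgl2 differed from each other by 0.58 on that measure, the smallest value for either of them against any other member.

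Relatives of the 2 lectins split on the array labelled WT 2. Clec10a, the paralog of Mgl2, read 8.80 to 9.06 on the KO arrays, against 8.92, 11.70 and 9.30 on WT 1 to 3. Cd209d read 6.50 to 7.30 on the KO arrays, against 5.84, 9.19 and 7.49, and Cd209c read 7.80 to 8.05, against 7.76, 9.78 and 7.97. By contrast Cd209b read 6.08 to 6.51 on the KO arrays, against 5.99, 6.27 and 6.46, and for Cd209e, Cd209f and Cd209g the KO mean minus WT 2 was -0.40, 0.47 and 0.22. Probes can cross-hybridise within such a family, and this was not tested.

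**Figure D2:**
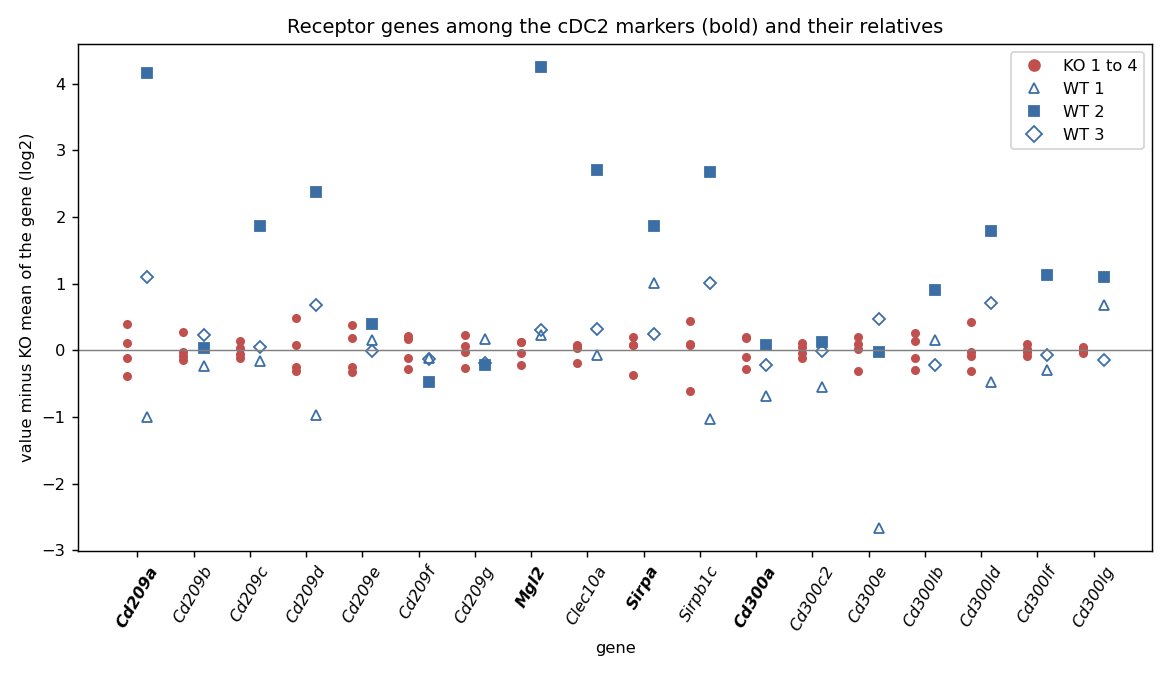
Value of each receptor gene minus its own mean over the KO arrays, in log2 units (vertical axis), for members in bold and their relatives (horizontal axis). Circles are the 4 KO arrays, and a triangle, a filled square and a diamond are WT 1, WT 2 and WT 3. The filled squares of Cd209a, Mgl2, Clec10a, Sirpb1c, Cd209d, Sirpa, Cd209c and Cd300ld stand well above 0, with a KO mean minus WT 2 between -4.25 and -1.79, while those of Cd209b and Cd300e lie near it, at -0.04 and 0.02.

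Of the inhibitory receptors, Sirpa had groups that did not overlap and Cd300a had groups that did. SIRP alpha recruits the phosphatases encoded by Ptpn6 and Ptpn11 when it binds CD47, and CD300a is an inhibitory receptor for phosphatidylserine and phosphatidylethanolamine. Sirpa read 10.33, 9.75, 10.20 and 10.19 on KO 1 to 4, against 11.13, 11.98 and 10.36 on WT 1 to 3. All 3 WT arrays lay above all 4 KO arrays, but WT 3 exceeded KO 1 by little, and WT 2 was again the highest. The mean was 10.12 ± 0.25 (SD, n = 4) in KO and 11.16 ± 0.81 (SD, n = 3) in WT. The difference was -1.04, standard error 0.34 (limma, adjusted p = 0.223), and the exact two-sided permutation test gave p = 0.0571, the smallest that 35 splits of 7 arrays allow.

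The size of the Sirpa difference depended on the WT arrays used. It was -0.63 without WT 2 (limma, adjusted p = 0.584) and -0.24 without WT 1 and WT 2 (limma, adjusted p = 0.912). Without WT 3 it was -1.43 and passed the threshold (limma, adjusted p = 0.00275). In that fit 25.3% of all genes passed, 11.4% higher and 13.8% lower in KO, and the members that did were 2 of 8, Sirpa lower and Cd4 higher in KO. With limma array weights the same 2 members passed, where 22.9% of all genes did. Genes with the most similar pattern were Plekha8 at 0.10 log2, Mthfd1l, a mitochondrial folate enzyme, at 0.13, and Ccl17, a chemokine of dendritic cells, at 0.14. Melanocyte lineage genes stood in the same order as Sirpa on WT 1 to 3, highest on WT 2 and lowest on WT 3. The mean of a list of 15 such genes, relative to its KO mean, was between -0.37 and 0.28 on the KO arrays and 3.72, 4.05 and 1.33 on WT 1 to 3, with Pmel, a melanosome protein, at 7.99 to 9.75 on the KO arrays and 13.51, 13.59 and 11.62 on WT 1 to 3. Tyr read 6.20 to 7.15 and Dct 7.58 to 8.89 on the KO arrays, against 8.80 to 12.31 and 10.72 to 13.43 in WT. Higher values on WT 1 and WT 2 than on WT 3 were not particular to melanocyte genes. The mean of the mature dendritic cell genes, relative to its KO mean, was 0.92, 0.85 and 0.46 on WT 1 to 3. The part of either list in the Sirpa difference was not tested.

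Cd300a read 9.77, 10.26, 10.25 and 9.96 on KO 1 to 4, against 9.38, 10.14 and 9.84 on WT 1 to 3. WT 2 and WT 3 lay within the range of the KO arrays, and WT 1 below it. The mean was 10.06 ± 0.24 (SD, n = 4) in KO and 9.79 ± 0.39 (SD, n = 3) in WT, a difference of 0.27 with a standard error of 0.20 (limma, adjusted p = 0.446). Its relatives Cd300ld, Cd300lf, Cd300lg and Cd300lb were higher on WT 2, where the KO mean minus WT 2 was -1.79, -1.13, -1.10 and -0.90. For Cd300c2 and Cd300e it was -0.12 and 0.02. Sirpb1c, a relative of Sirpa, read 6.98 to 8.03 on the KO arrays, against 6.57, 10.27 and 8.60 on WT 1 to 3.

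Of 7 genes for partners of SIRP alpha, 0 passed the adjusted threshold in limma. At an unadjusted p under 0.05, 1 was higher and 0 were lower in KO, where 8.98% and 10.6% of all genes were. The median difference was 0.12, beside 0.06 over all genes. Cd47, the ligand, read 12.37 ± 0.08 (SD, n = 4) in KO and 12.09 ± 0.34 (SD, n = 3) in WT. Ptpn6 read 11.43 ± 0.11 in KO and 11.52 ± 0.11 in WT, and Ptpn11 read 10.12 ± 0.17 in KO and 10.08 ± 0.10 in WT. Skap2, an adaptor, differed by 0.44, Fyb, an adaptor, by 1.08 and Ptk2b, a tyrosine kinase, by -0.11. Without WT 2 the list median was 0.09, and without WT 1 and WT 2 it was -0.09, where Fyb, Cd47 and Skap2 stood at -0.30, -0.10 and -0.01. For Fyb WT 1 and WT 2 read 8.47 and 9.70, against 10.76 to 10.95 on the KO arrays and 11.15 on WT 3.

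Esam and Cd4 mark the Notch-dependent fraction of splenic cDC2. Esam encodes an adhesion molecule that endothelial cells also carry, and its values were the most even of the members. It lay above the median of the negative controls on 7 of 7 arrays but passed their 95th percentile on 0 of 7. Even values so low need not mean even expression. Esam read 8.97, 9.23, 9.16 and 9.04 on KO 1 to 4, against 8.91, 8.82 and 9.05 on WT 1 to 3, a range of 0.41 log2 over all 7 arrays. The mean was 9.10 ± 0.12 (SD, n = 4) in KO and 8.93 ± 0.12 (SD, n = 3) in WT, and the difference was 0.18 with a standard error of 0.11 (limma, adjusted p = 0.369). WT 2, highest for the lectins, was the lowest array for Esam. Of 11 endothelial and pericyte markers measured, the list mean relative to KO was between -0.11 and 0.15 on the KO arrays and -0.26, -0.09 and -0.12 on WT 1 to 3. Within it Pecam1 read 10.44 ± 0.23 (SD, n = 4) in KO and 8.80 ± 1.15 (SD, n = 3) in WT, Cdh5 7.50 ± 0.29 in KO and 6.77 ± 0.32 in WT, and Kdr 8.05 ± 0.47 in KO and 9.84 ± 1.25 in WT.

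Cd4 read 9.81, 9.52, 9.71 and 9.93 on KO 1 to 4, against 8.96, 9.29 and 10.06 on WT 1 to 3. WT 1 and WT 2 lay below every KO array and WT 3 above every KO array, so the groups overlapped. Only on WT 3 did Cd4 pass the 95th percentile of the negative controls. The mean was 9.74 ± 0.17 (SD, n = 4) in KO and 9.44 ± 0.56 (SD, n = 3) in WT, a difference of 0.31 with a standard error of 0.25 (limma, adjusted p = 0.479). Without WT 3 it was 0.62 (limma, adjusted p = 0.0166), and without WT 1 and WT 2 it was -0.32 (limma, adjusted p = 0.851), so the sign turned with the WT arrays kept. Genes with the most similar pattern were Cyria at 0.07 log2, Clip1 at 0.07 and Polr3g at 0.08.

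CD4 is also the co-receptor of helper T cells, so T cell markers were read beside it. Cd3e read 7.89 ± 0.26 (SD, n = 4) in KO and 7.90 ± 0.31 (SD, n = 3) in WT, Cd3d 7.52 ± 0.52 in KO and 7.91 ± 0.31 in WT, and Cd3g 7.50 ± 0.46 in KO and 8.05 ± 0.70 in WT. The mean of 14 T cell markers relative to KO was 0.01, -0.40, 0.06 and 0.34 on KO 1 to 4, and -0.04, 0.00 and 0.35 on WT 1 to 3. Within KO, Cd4 and that list were both lowest on KO 2 and highest on KO 4, and WT 3 was the highest array for both. That order within KO was not particular to T cell markers. The lists of other cDC2, B cell, neutrophil and mature dendritic cell genes shared it, while the cDC1 list did not. Above the negative control median of each array, Cd4 stood at 2.94, 3.02, 3.04 and 3.05 on KO 1 to 4. On WT 1 to 3 it stood at 2.77, 3.02 and 3.35. The part of T cell RNA in the Cd4 values was not tested. On WT 2 the T cell markers went both ways, with 10 of 14 below their KO mean, a median KO minus WT 2 of 0.29, and Il7r at -1.85, against 0.46 for Cd4.

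The regulators Notch2 and Klf4 did not follow the lectins. Notch2, the receptor, read 11.68, 11.52, 11.39 and 11.42 on KO 1 to 4, against 11.30, 10.61 and 11.43 on WT 1 to 3. Here WT 2 was the lowest array, and WT 3 lay within the range of the KO arrays. The mean was 11.50 ± 0.13 (SD, n = 4) in KO and 11.11 ± 0.44 (SD, n = 3) in WT, a difference of 0.39 with a standard error of 0.20 (limma, adjusted p = 0.297), and it was 0.14 without WT 2 (limma, adjusted p = 0.696). Genes with the most similar pattern were Myo1a, Jtb and Zfyve26, each at 0.07 log2.

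Klf4 read 10.15, 10.96, 10.39 and 10.90 on KO 1 to 4, against 9.99, 10.54 and 10.88 on WT 1 to 3. Its spread within KO, 0.81 log2, was the widest among the members and close to that within WT, 0.89. WT 2 and WT 3 lay within the KO range. The mean was 10.60 ± 0.39 (SD, n = 4) in KO and 10.47 ± 0.45 (SD, n = 3) in WT, a difference of 0.13 with a standard error of 0.27 (limma, adjusted p = 0.792). Among its relatives, Klf2 read 10.07 ± 0.34 in KO and 9.28 ± 0.80 in WT, Klf3 9.72 ± 0.22 in KO and 9.37 ± 0.18 in WT, and Klf10 9.24 ± 0.09 in KO and 9.55 ± 0.20 in WT. Klf5, Klf6 and Klf13 differed less, by 0.23, 0.09 and 0.105. Without WT 1 and WT 2 the difference of Klf2 was 0.03. Of 26 measured relatives of the members, 0 passed the adjusted threshold in limma. At an unadjusted p under 0.05, 2 were higher and 1 lower in KO, where 8.98% and 10.6% of all genes were.

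Of 26 measured genes of the Notch pathway, 0 passed the adjusted threshold in limma. At an unadjusted p under 0.05, 2 were higher and 3 lower in KO, where 8.98% and 10.6% of all genes were. The median difference was 0.07. All KO arrays lay below all WT arrays for 3 of the 26, Jag1, Dll4 and Psen2, and above them for 2, Numb and Notch4. Over all genes those shares were 5.92% below and 7.85% above. Jag1, a ligand, read 8.62 ± 0.36 (SD, n = 4) in KO and 9.39 ± 0.08 (SD, n = 3) in WT. Dll4, another ligand, read 6.66 ± 0.24 in KO and 7.39 ± 0.44 in WT, and Psen2, a catalytic subunit of gamma-secretase, 10.10 ± 0.12 in KO and 11.35 ± 0.94 in WT. Numb, an inhibitor of Notch, read 10.54 ± 0.08 in KO and 10.17 ± 0.13 in WT. Among the other receptors, Notch4 read 9.89 to 10.00 on the KO arrays, against 8.95, 7.79 and 9.78 on WT 1 to 3, while Notch1 and Notch3 differed by 0.05 and -0.01. Without WT 2 the list median was 0.01, and without WT 1 and WT 2 it was -0.02, where Jag1 stood at -0.75, Psen2 at -0.17 and Notch4 at 0.16.

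**Figure D3:**
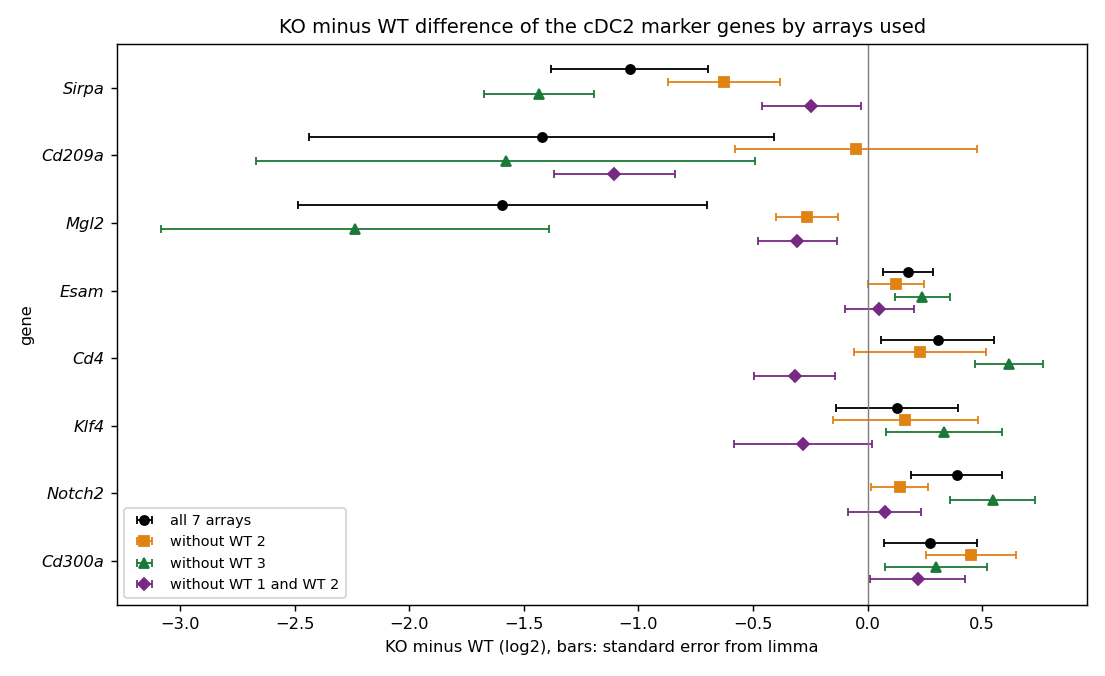
KO minus WT difference in log2 units (horizontal axis) of each cDC2 marker gene (vertical axis) from limma, with standard errors as bars, for all 7 arrays, without WT 2, without WT 3, and without WT 1 and WT 2. The differences of Mgl2 and Sirpa shrink to -0.26 and -0.63 without WT 2, and Cd4 and Klf4 change sign without WT 1 and WT 2, to -0.32 and -0.28.

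Without WT 2 the differences of the 4 genes not yet given so were 0.12 for Esam, 0.23 for Cd4, 0.16 for Klf4 and 0.45 for Cd300a. Without WT 1 those of Cd4 and Cd300a were both 0.07, against 0.31 and 0.27 with all arrays. Without WT 1 and WT 2 that of Mgl2 was -0.31, Esam 0.05, Notch2 0.07 and Cd300a 0.22, and 0 genes passed the adjusted threshold in limma in either fit. Over the 8 members, 0 passed the adjusted threshold, 5 had a higher and 3 a lower mean in KO, and the median difference was 0.15, beside 0.06 over all genes. At an unadjusted p under 0.05 in limma, 1 was lower and 0 were higher, where 10.6% and 8.98% of all genes were. Groups without overlap were found for 2 of 8, Sirpa and Mgl2, both lower in KO, where 5.92% of all genes had all KO arrays below all WT arrays and 7.85% had all above. Against WT 2 alone, 3 members were lower in KO by at least 1 log2, where 7.55% of all genes were, and 0 were higher by as much, where 3.15% were. Either way 13.8% of all genes had groups without overlap, and 10.7% differed from WT 2 by at least 1 log2. Against WT 1 alone Sirpa was lower and Cd209a higher in KO by at least 1 log2, where 5.18% of all genes were lower and 2.17% higher. The 3 contrasts share the 4 KO arrays. On WT 3, 4 of 8 members lay within the range of the KO arrays, where 57.7% of all genes did, and on WT 1 and WT 2 it was 0 and 2 members, where 38.1% and 29.9% of all genes did.

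Other genes of cDC2 were read from a list of 24, of which 21 were measured. None passed the adjusted threshold in limma. At an unadjusted p under 0.05, 6 were lower and 0 higher in KO, where 10.6% and 8.98% of all genes were. The median difference was -0.54. Itgam, which encodes CD11b, read 7.99 to 8.66 on the KO arrays, against 7.31, 10.94 and 8.37 on WT 1 to 3. Irf4, the cDC2 transcription factor, read 6.90 to 8.16 on the KO arrays, against 8.35, 9.24 and 8.44, and Relb, an NF-kB subunit, 10.03 to 10.80, against 11.08, 10.88 and 10.84. For both, all 3 WT arrays lay above all 4 KO arrays. Tmem176b differed by -1.43, Tmem176a by -1.14, S100a4 by -1.13 and Ccr6, a chemokine receptor, by -0.61, with the same separation. Thus 6 of the 21 genes had all KO arrays below all WT arrays, where 5.92% of all genes did. The reverse held for 0, where 7.85% of all genes had it. Without WT 2 the list median was 0.03, beside 0.04 over all genes, and the difference of Itgam was 0.49, against -0.54 with all arrays. Without WT 1 and WT 2 the list median was -0.42, beside 0.02 over all genes, with Irf4 at -0.74, Relb at -0.42 and Tmem176b at -0.88. Lists of other cells had similar medians there, -0.48 for monocyte and macrophage, -0.43 for NK cell and -0.32 for T cell markers. That of mature dendritic cell genes, which also hold Relb, was -0.42. The medians of cDC1 and neutrophil markers were 0.01 and 0.15. On WT 2, 12 of the 21 genes had their highest value of the 7 arrays, where 20.6% of all genes did, and the KO mean was lower by at least 1 log2 for 10 of them.

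**Figure D4:**
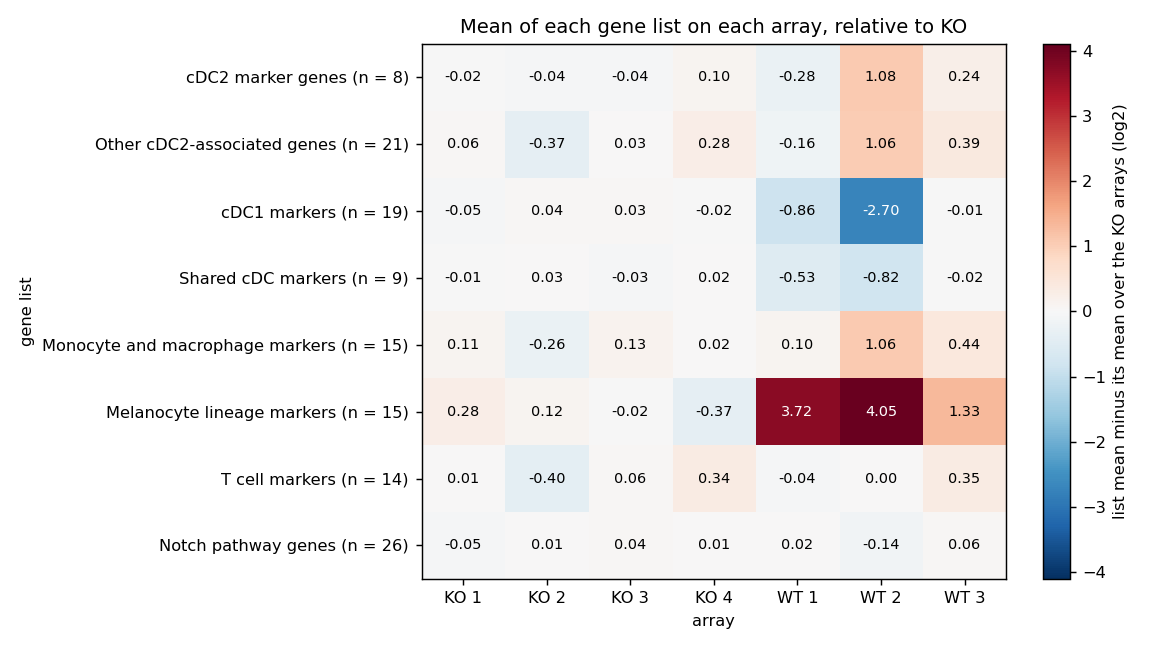
Mean of each gene list (rows) on each array (columns) minus its mean over the 4 KO arrays, in log2 units, with n the number of measured genes. On the array labelled WT 2 the means of the cDC2 lists stand 1.08 and 1.06 above KO, the first through Cd209a, Mgl2 and Sirpa, and that of the cDC1 list stands at -2.70, while WT 3 lies 0.24, 0.39 and -0.01 from KO on the same lists.

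On WT 2 the means of the cDC2 lists were above KO and that of the cDC1 list below, but the 8 members did not move as one. Of them 4 lay above and 4 below their KO mean, with a median KO minus WT 2 of -0.01, and Cd209a, Mgl2 and Sirpa carried the mean. Of the 21 other cDC2 genes 16 lay above, and of the 19 cDC1 markers 0 did. The mean of the 8 members relative to KO was -0.28, 1.08 and 0.24 on WT 1 to 3, that of the other cDC2 genes -0.16, 1.06 and 0.39, and that of the 19 cDC1 markers -0.86, -2.70 and -0.01. On the KO arrays the 3 lists ranged from -0.04 to 0.10, from -0.37 to 0.28 and from -0.05 to 0.04. Markers shared by both subsets stood lower on WT 1 and WT 2, at -0.53 and -0.82, with Zbtb46 at 9.04 ± 0.08 (SD, n = 4) in KO and 8.58 ± 0.22 (SD, n = 3) in WT. Flt3 read 10.40 ± 0.18 in KO and 9.69 ± 0.85 in WT, and Itgax, which encodes CD11c, 12.15 ± 0.17 in KO and 10.96 ± 1.04 in WT.

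Several members are also made by monocytes and macrophages, and most of those markers were high on WT 2. Of 15 measured, 10 were highest on WT 2 and 11 lay above their KO mean there, while Vcam1, Spic, Cd163 and Vcan lay below it, with a KO mean minus WT 2 of 1.06, 0.61, 0.34 and 0.16. The list mean relative to KO was between -0.26 and 0.13 on the KO arrays and 0.10, 1.06 and 0.44 on WT 1 to 3. Fcgr1, which encodes CD64, read 8.05 to 8.26 on the KO arrays, against 9.11, 11.36 and 8.69. Cd14 read 8.80 to 9.49 on the KO arrays, against 9.12, 10.57 and 9.52, and Ly6c2 9.04 to 9.61, against 10.16, 9.67 and 9.82. Their part in the values of Cd209a and Mgl2 was not tested.

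Most of the remaining marker lists, though not the erythroid one, held genes on both sides of KO on WT 2. Of the NK cell markers, 4 of 9 lay above their KO mean, with a KO mean minus WT 2 of 1.98 for Ncr1, 2.67 for Klrb1c and -2.29 for Klrd1. Of the plasmacytoid dendritic cell markers 3 of 9 lay above, with 0.97 for Siglech, -0.40 for Tcf4 and -1.14 for Bst2. Of the neutrophil markers 2 of 9 lay above, with 0.95 for S100a8, 1.27 for S100a9 and 0.52 for Mpo. Of the B cell markers 1 of 9 did, with 0.24 for Cd79b and 1.15 for Ms4a1. All 5 erythroid markers lay below, with 0.72 for Alas2, 0.52 for Slc4a1 and 0.37 for Klf1, and 7 of 8 pan-leukocyte genes did, with 0.48 for Ptprc, 0.12 for Coro1a and 0.69 for Cd53. Of the mature dendritic cell genes 9 of 11 lay above, with -0.57 for Ccr7, -2.51 for Fscn1 and -2.13 for Ccl22.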

How the data were processed

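The authors deposited 1 table of log2 values for 28846 probe sets on 7 arrays, which the submitters' processing notes tie to RMA in Expression Console 1.1 (Affymetrix); the log2 scale was read from the values, 3.68 to 14.28. RMA compresses low signals, which shrinks differences of dim probe sets; precision is limited by there being 7 arrays. Scanner files were not analysed here. The platform annotation gave 1 symbol to 19572 of 22206 transcript probe sets and listed none for 2634; the probe set with the highest mean per symbol left 19505 genes. Negative control medians came from 5222 probe sets. Groups and replicate numbers came from the titles.

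KO and WT were compared over all genes with limma 3.58.1 in R 4.3.3 (lmFit, eBayes, no covariate, Benjamini-Hochberg, threshold 0.05), after a check on simulated data, and single members with exact permutation. The simulated arrays of both groups had the spread of KO, so the check does not cover genes with a wider spread in WT. Each array was left out in turn, WT 1 and WT 2 together, and a replicate block, median centring, quantile normalization, a dim filter (mean of at least 8.09), trended robust variance, array weights and every named probe set were tried. The members and lists were chosen with earlier results of these data known. Named were all members, the first 3 measured genes of each list, the 4 smallest unadjusted p of the cDC2, Notch, SIRP and relatives lists, and the 3 nearest patterns of members with a range of at least 1 log2. Il7r, S100a4, 4 macrophage genes, Klf5, Klf6, Klf13 and Clec10a were named after their values were seen. So were the other named relatives among Cd209d to Cd209g and the Cd300 genes.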

Additional observations from a re-analysis of the deposited data

How the results depend on the processing

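The number of genes past the threshold in limma was 0 with all 7 arrays and in the alternatives tried, except with array weights (4458 genes, 22.9%) and without WT 3. Leaving out 1 array at a time gave 0 to 4931 genes and 0 to 2 members. With array weights 2 members passed, Sirpa at -1.11 and Cd4 at 0.61. Those weights were 1.95 for WT 1, 0.56 for WT 2 and 0.24 for WT 3, so WT 3 counted least. With the replicate number as a replicate block 0 genes and 0 members passed, with Sirpa at -1.06 (limma, adjusted p = 0.389). The deviations of same-numbered arrays from their group means correlated at -0.04, 0.05 and -0.02. As WT 1 and WT 2 stood apart from WT 3, these values cannot show whether same-numbered arrays share more than a number. The exact permutation test cannot reach p = 0.05 in this design, so its 0 members say nothing. Signs turned for Cd4 without WT 1 and WT 2 (-0.32), and for Klf4 without WT 1 (-0.11) and without WT 1 and WT 2 (-0.28), and the cause was not tested. Leaving out 1 array at a time gave Klf4 differences of -0.11 to 0.33. Sirpa, Cd209a, Mgl2, Esam, Notch2 and Cd300a kept their sign in every alternative that could be run, and Mgl2 was left out by the dim filter. A kept sign could still lie near 0. Cd209a was -0.05 (standard error 0.53) without WT 2, and without WT 1 and WT 2 Esam was 0.05 and Notch2 0.07.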
